A study of Mus musculus with 36 samples.

Results

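Close lesions on opposite strands are pairs of mapped lesions, 1 on each strand of the DNA, that lie next to each other in the genome of aged mice. They were selected on the deposited positions by a rule: within a library, an autosomal position on the plus strand and an autosomal position on the minus strand with starts at most 10 bases apart. This gave 63732 close pairs, 18133 in the maps of single-strand breaks (SSBs) and 45599 in the maps of abasic (AP) sites, out of 14084267 autosomal positions (14342809 on all chromosomes). Opposite-strand pairs 100 to 110 bases apart, of which there were 50128, served as comparison pairs. The offset of a pair is the start on the minus strand minus the start on the plus strand, in bases. It does not depend on which chromosome strand is called plus. A positive offset means that the lesion on the minus strand lies to the right of that on the plus strand, and a negative offset that it lies to the left.

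The study mapped DNA damage in mice of several ages, and the libraries analysed here are those of male C57BL/6J mice at 24 months. They come from brain, heart, liver, sperm, bone marrow and mononuclear cells of peripheral blood (PBMCs), with 2 samples per tissue, and the labels name 2 mice in all. Every sample had an SSB library, made by SSiNGLe, and an AP library of the same sample, made by SSiNGLe-AP, which gave 12 libraries per assay. Red cells had been lysed in the bone marrow, and motile sperm had been collected from the tail of the epididymis. DNA was taken from whole tissue, so that no cell type within a tissue can be told apart, and the RNA libraries of the same samples, with which a tissue label could be checked, were not analysed here. The SSB libraries held 225011 to 1041983 positions (median 410489) and the AP libraries 460719 to 963258 (median 739741).

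A strand break interrupts the backbone of 1 DNA strand, whereas an AP site is a sugar that has lost its base. Both are substrates of base excision and single-strand break repair, which use the intact opposite strand as template. Lesions on opposite strands within a few bases of each other form a clustered lesion, and breaks in both strands at such a distance can part the duplex into a double-strand break. A list of positions pooled over many cells does not say whether the lesions of a pair were on the same molecule. Which side of a break the recorded base lies on is not given in the sources used here, so no overhang is named.

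Sequences of close pairs at the most frequent offsets are shown first, so that the spacing of the lesions and the bases around them can be seen. RefSeq promoter windows of GRCm38, 250 bases before to 50 after a gene start, were at hand for 31396 autosomal gene starts, and 757 of these windows held at least 1 whole close pair. In AP libraries the most frequent offset was -4. The following plus-strand sequences hold, in chromosome order, the first 5 such pairs in promoter windows, named by the gene of the window. The first capital is the base of the lesion on the minus strand, the second that of the lesion on the plus strand.
2810405F15Rik, chr2:116076060-116076084: cccggcgcctCcggAggctgctctc
Ppp1r14d, chr2:119229922-119229946: gccaaggctcTtggGaggggcaggg
Apmap, chr2:150608652-150608676: gcctacagctGcagGcaaatggtga
Spag8, chr4:43653547-43653571: gactccacctCccgGgttgccatag
Cyp4x1os, chr4:115133616-115133640: taacccttccGcggGggaatgcgag
In SSB libraries the most frequent offset was -2. The first 5 pairs at that offset, written in the same way, are these.
R3hdm1, chr1:128103152-128103174: agacttagtcCcGttctcccgct
Dcaf17, chr2:71055749-71055771: gggagtggatAcGgagggccgcg
Hoxd1, chr2:74762803-74762825: gctctcgcccCgCccttccgccg
Prnd, chr2:131950854-131950876: ggaaggtgttCcGgagaagtgag
Gpr89, chr3:96905262-96905284: ctcagagaagCcGcggcttaaga
The base pair midway between the lesions was C or G in 29 of the 31 distinct AP pairs at offset -4 and in 20 of the 22 distinct SSB pairs at offset -2 that lay in promoter windows with their flanks. The share of C and G was 53.6% over all bases of the windows. At the same place, next to lesions that belong to no close pair, it was already 89.6% for AP sites and 80.5% for SSBs.

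The promoter windows that follow are those of Gm33862 and Sp110, which had close pairs in the most libraries, and that of 4930456A14Rik, the first by symbol of those with 2 pairs in 2 libraries. They are written 5′ to 3′ on the strand of the gene, and every base that is a lesion of a close pair in any library is in capitals.
Gm33862, chr11:3136826-3137125, gene on the plus strand: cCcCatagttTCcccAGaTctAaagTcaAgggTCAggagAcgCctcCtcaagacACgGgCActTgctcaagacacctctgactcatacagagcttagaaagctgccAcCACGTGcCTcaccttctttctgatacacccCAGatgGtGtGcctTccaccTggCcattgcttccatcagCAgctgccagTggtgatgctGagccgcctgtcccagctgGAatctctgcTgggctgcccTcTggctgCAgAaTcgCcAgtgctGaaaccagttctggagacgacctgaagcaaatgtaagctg
Sp110, chr1:85598761-85599060, gene on the minus strand: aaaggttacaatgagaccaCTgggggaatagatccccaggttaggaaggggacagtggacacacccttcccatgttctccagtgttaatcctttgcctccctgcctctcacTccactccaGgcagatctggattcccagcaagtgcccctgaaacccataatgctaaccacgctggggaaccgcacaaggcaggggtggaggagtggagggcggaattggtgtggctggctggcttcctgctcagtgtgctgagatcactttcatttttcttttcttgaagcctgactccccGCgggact
4930456A14Rik, chr7:126502184-126502483, gene on the plus strand: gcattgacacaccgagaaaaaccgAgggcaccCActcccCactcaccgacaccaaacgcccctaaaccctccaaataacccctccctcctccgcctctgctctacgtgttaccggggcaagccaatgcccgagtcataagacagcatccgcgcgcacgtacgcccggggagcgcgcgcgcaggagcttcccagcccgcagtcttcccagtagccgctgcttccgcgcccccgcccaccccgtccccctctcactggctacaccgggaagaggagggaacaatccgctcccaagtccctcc
The window of Gm33862, a predicted gene within the span of Sfi1, held 48 close pairs from 11 libraries, 45 of them AP pairs. Its 56 lesion bases ran along most of the window. The window of Sp110, which encodes a nuclear body protein, held 3 AP pairs from 3 libraries. That of 4930456A14Rik held 2 SSB pairs from 2 libraries, and of the 757 windows only 14 had close pairs in several libraries.

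Close pairs outnumbered comparison pairs per offset in 12 of 12 AP libraries and, by less, in 11 of 12 SSB libraries. The close excess is the number of close pairs per offset (21 offsets) divided by the number of comparison pairs per offset (22 offsets). Because this ratio is what the pairs were chosen by, it is a description within a library. In SSB libraries it was 1.20 and 1.01 in bone marrow and 1.10 and 1.20 in brain. It was 1.16 in both heart libraries, and 1.24 and 1.20 in liver. It was 0.957 and 1.30 in PBMCs and 1.11 and 1.05 in sperm. The PBMC libraries were thus the lowest and the highest of the assay, and they held only 223 and 502 close pairs. In AP libraries the excess was 1.43 and 1.39 in bone marrow, 1.41 and 1.39 in brain, 1.46 and 1.51 in heart, 1.54 and 1.44 in liver, 1.36 and 1.404 in PBMCs, and 1.39 and 1.35 in sperm. Every AP library lay above every SSB library. The mean was 1.14 ± 0.0990 (SD, n = 12 libraries) for SSBs and 1.42 ± 0.0580 (SD, n = 12) for AP sites.

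Within samples, the close excess was lower for SSBs than for AP sites in 12 of 12, with a mean difference of -0.32 ± 0.11 (SD) on the log2 scale, which is a 1.25-fold higher excess for AP sites (1.08-fold to 1.42-fold). The two-sided exact sign-flip test over the 12 samples gave p = 0.000488, the smallest it can give, and an adjusted p of 0.00215 over the 22 comparisons made. When only pairs with the minus-strand lesion to the left were counted, the difference was -0.58, and with the lesion to the right it was -0.11. The assay difference therefore lay mostly on the left side, where offset -4 is. That libraries of a tissue were more alike than libraries of different tissues was not detected. The mean absolute log2 difference within tissues minus that between tissues was 0.0091 for SSBs and -0.016 for AP sites (one-sided exact permutation test over 10395 pairings, p = 0.640 and 0.145, adjusted p = 0.670 and 0.199). With 2 libraries a tissue, differences between single tissues were not tested.

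**Figure D1:**
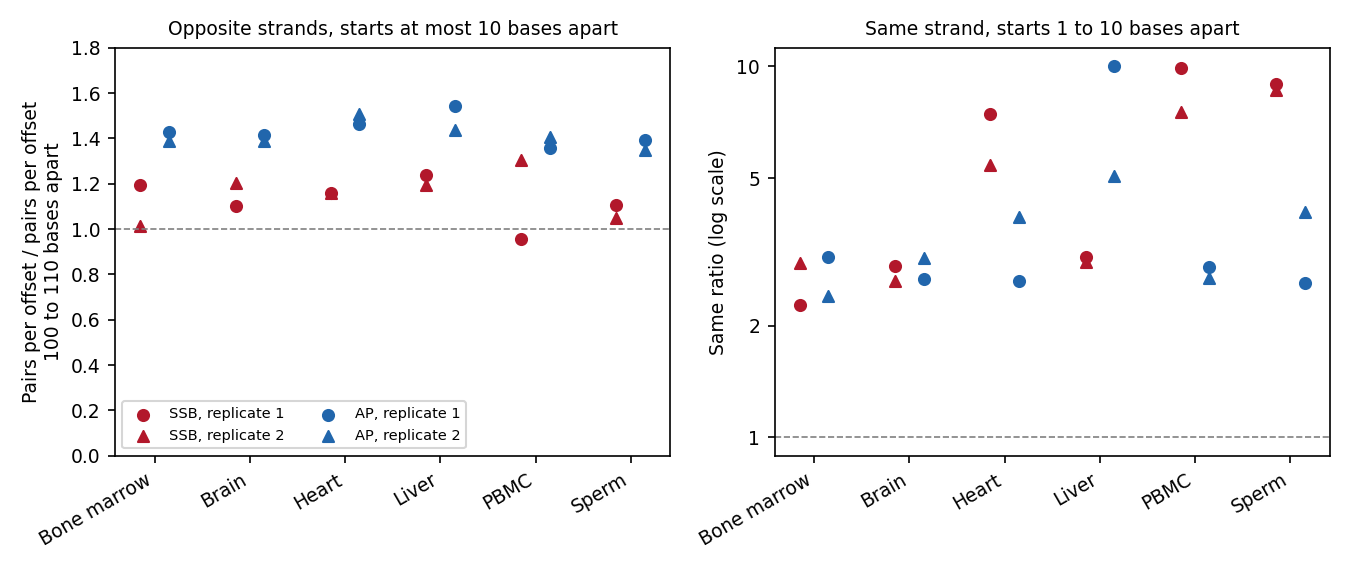
Close pairs per offset divided by pairs per offset 100 to 110 bases apart, in each of 24 libraries, by tissue; left, opposite strands; right, same strand on a log scale. On opposite strands the AP libraries (1.35 to 1.54) lie above the SSB libraries (0.957 to 1.30), and on the same strand every library lies above its own opposite-strand value, at 2.28 or more.

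Relative to positions 100 to 110 bases apart, close positions were far more frequent along a strand than across strands. Whether close positions on the same strand are separate lesions was not tested. Positions 1 to 10 bases apart on the same strand, set against positions 100 to 110 bases apart on the same strand, gave a ratio of 2.28 to 9.89 (median 4.25) in SSB libraries and 2.397 to 10.0 (median 2.96) in AP libraries. The opposite-strand excess was lower than the same-strand excess in 12 of 12 SSB libraries, by a log2 difference of -2.04 ± 0.87 (SD), and in 12 of 12 AP libraries, by -1.27 ± 0.55 (SD). Both exact sign-flip tests gave p = 0.000488 (adjusted p = 0.00215). The same-strand ratio was highest in SSB libraries of PBMCs, sperm and heart and in AP libraries of liver, at 5.06 to 10.0.

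The offsets of close pairs were concentrated at a few bases, and these differed by assay. Offset -4 was the most frequent offset in 12 of 12 AP libraries, with 99 to 643 pairs per library. Relative to comparison pairs per offset, its level was 2.84 ± 0.32 (SD, n = 12), from 2.33 in brain 2 to 3.28 in heart 1. Summed over AP libraries, the level was 2.12 at offset -5, 2.87 at -4, 2.20 at -3, 1.498 at -2 and 1.56 at -1. It then fell to 1.04 at offset 0 and to 0.924 at offset 1, the lowest value among members, and rose again to 1.39 at offset 6. In SSB libraries the profile was lower and broader. The most frequent offset was -3 in 4 libraries, -2 in 4, and -1, 0, 1 and 2 in 1 library each, the last 3 in libraries of PBMCs and heart with 18 to 73 pairs at that offset. Offset -2 reached 1.65 ± 0.22 (SD, n = 12) times the comparison pairs per offset, against 1.12 ± 0.25 (SD, n = 12) at offset -4. From offset -10 to -6 the SSB level was 0.903 ± 0.0697 (SD, n = 12), below that of comparison pairs in 12 of 12 libraries. These offsets were singled out after the profile was seen, so no test is given.

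**Figure D2:**
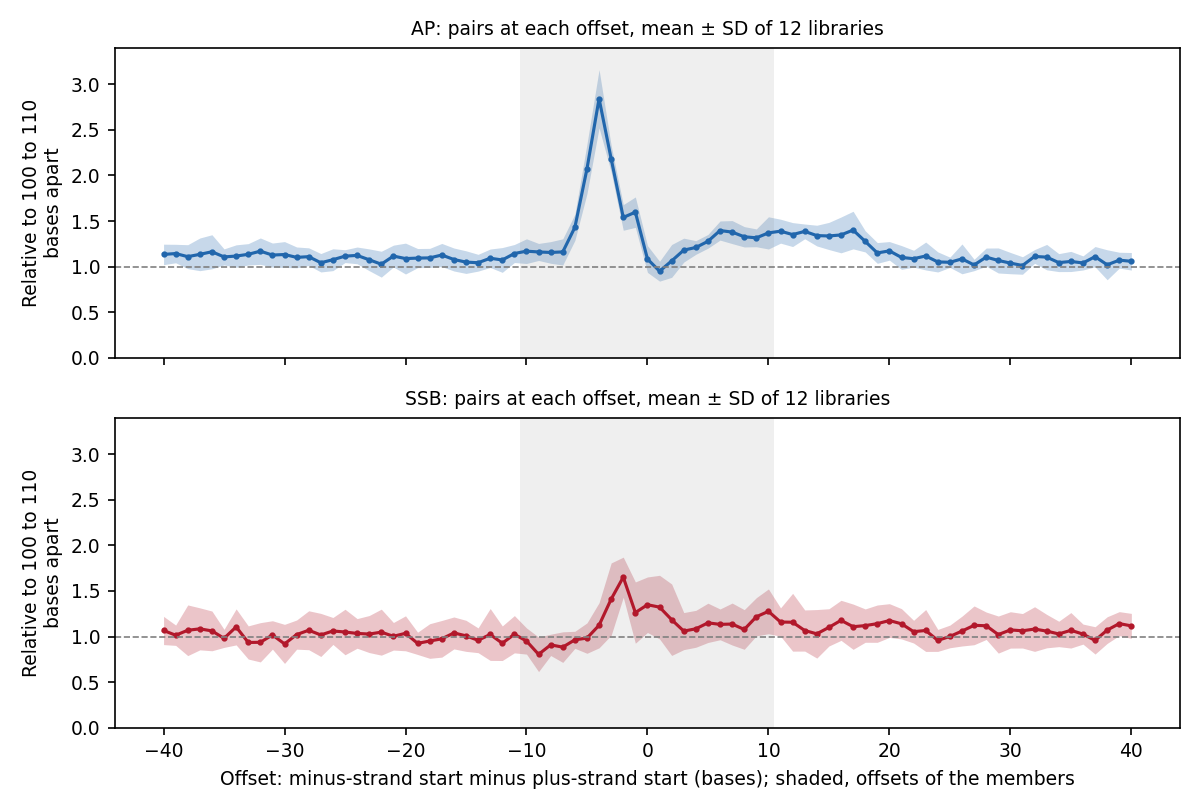
Opposite-strand pairs at each offset from -40 to 40 bases, divided by comparison pairs per offset; line and band, mean ± SD of 12 libraries; shaded, the offsets of the members. AP pairs peak at offset -4 (mean 2.84) with a lower shelf on the right, and SSB pairs peak at offset -2 (mean 1.65).

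Pair counts changed little across the limit of 10 bases, but the AP profile was still raised there on the right side. Summed over AP libraries, the level relative to comparison pairs was 1.33 at offset 10, 1.36 at 11 and 1.35 at 17. It fell to 1.17 at offset 19, against 1.12 at offset -11 on the left side. The limit thus cut through a shelf on the right, and a wider limit takes in more of it. The part of this shelf in strand order at wider limits was not tested. SSB libraries held 680 pairs at offset -10 and 908 at offset 10, just inside the limit, and 739 and 871 pairs at offsets -11 and 11, just outside. AP libraries held 1772 and 2050 pairs just inside and 1724 and 2088 just outside. The AP peak was as high without dense or repeated places. Without the densest 1% of 10 kb windows the level at offset -4 was 2.94 ± 0.32 (SD, n = 12), with groups of nearby pairs counted once 2.89 ± 0.32, and without positions found in several libraries 2.85 ± 0.30. Offset -4 was the most frequent in 12 of 12 AP libraries each time. At offset -2 the SSB level was 1.75 ± 0.35, 1.70 ± 0.27 and 1.72 ± 0.29 (SD, n = 12) in the same settings.

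Close pairs at most 2 bases apart made up a larger share in SSB than in AP libraries. The share of close pairs at most 2 bases apart was 24.1% to 33.9% (median 27.95%) for SSBs and 18.8% to 23.2% (median 20.6%) for AP sites. It was higher for SSBs in 12 of 12 samples, by 7.34 ± 2.80 percentage points (SD; exact sign-flip test, p = 0.000488, adjusted p = 0.00215). The groups did not overlap, the lowest SSB library being sperm 2 and the highest AP library liver 2. Offsets -5 to -3, where AP pairs peak, lie just outside this cut. They held 23.8% ± 2.06 of AP and 14.7% ± 2.63 of SSB close pairs (SD, n = 12 libraries). The share thus covers the shortest distances only, and distance in general was not tested.

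The order of the strands differed in opposite directions from that of comparison pairs. Among SSB pairs with unequal starts, the minus-strand lesion was to the right in 47.7% to 55.9% (median 51.2%) of close pairs and in 44.2% to 53.7% (median 48.2%) of comparison pairs. The share was higher in close pairs in 9 of 12 libraries, by 3.04 ± 2.94 percentage points (SD; exact sign-flip test, p = 0.00586, adjusted p = 0.0143). Bone marrow 2, brain 2 and sperm 2 went the other way, by less than 1 point each. Among AP pairs the minus-strand lesion was to the right in 40.6% to 45.9% (median 43.3%) of close pairs and in 44.5% to 48.4% (median 45.8%) of comparison pairs. That share was lower in close pairs in 11 of 12 libraries, the exception being brain 2, with a mean difference of -2.52 ± 1.62 points (SD; p = 0.00146, adjusted p = 0.00403, exact sign-flip test). The difference between the assays was 5.56 ± 3.96 points (SD) and was positive in 11 of 12 samples (exact sign-flip test, p = 0.00146, adjusted p = 0.00403). These values depend on the distance limit, and those of SSBs also on the comparison distance and the depth. Against pairs 1000 to 1100 bases apart the SSB difference was 1.28 points (p = 0.192, exact sign-flip test). With libraries thinned to equal depth it was 1.75 points (p = 0.299, exact sign-flip test). The AP difference was -6.83 points (p = 0.000488) and -2.20 points (p = 0.0283, exact sign-flip tests) in these settings. With a limit of 5 bases the SSB difference was -1.001 points (p = 0.351, exact sign-flip test), and with a limit of 20 bases the AP difference was 2.65 points (p = 0.000488, exact sign-flip test). The difference between the assays was 1.19 points with a limit of 20 bases (p = 0.303) and 3.95 points with libraries thinned to equal depth (p = 0.0874, exact sign-flip tests). Strand order thus had no single direction across limits. Over the replicate 2 samples alone it was 2.09 points for SSBs (p = 0.250) and -2.22 points for AP sites (p = 0.0625), and the assays differed by 4.31 points (p = 0.0938, exact sign-flip tests over 6 samples).

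**Figure D3:**
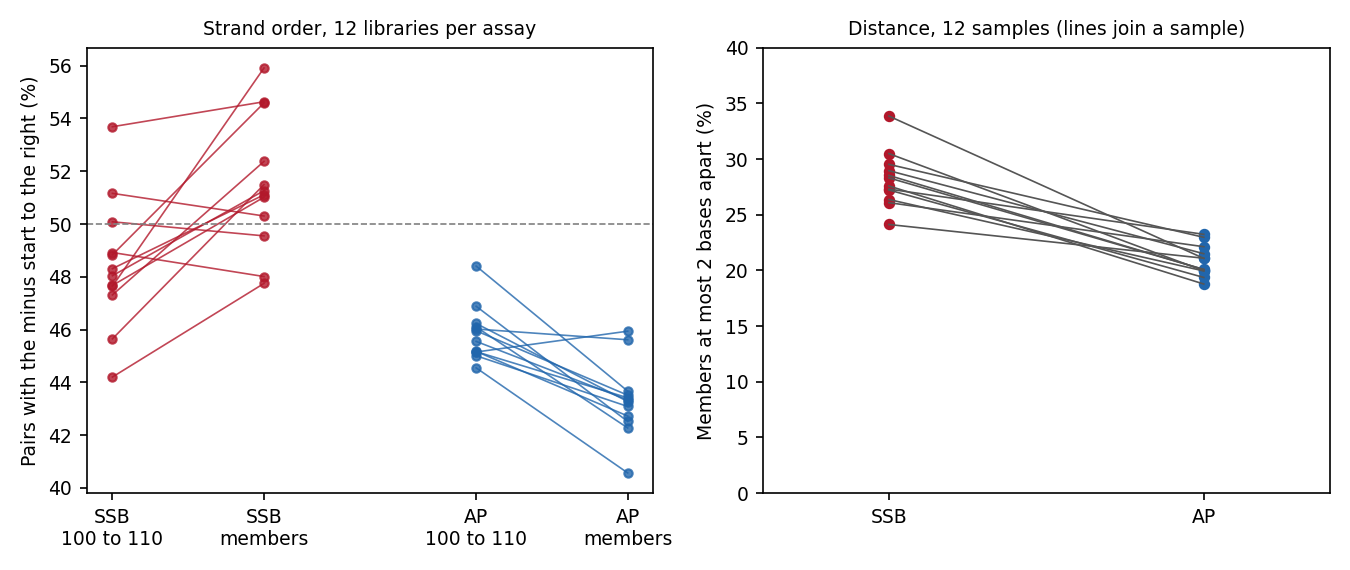
Left, percent of pairs with the minus-strand lesion to the right, for comparison pairs and close pairs (members), each line a library; right, percent of close pairs at most 2 bases apart, each line joining the SSB and AP library of a sample. AP lines fall in 11 of 12 libraries, SSB lines rise in 9 of 12, and the SSB share at short distance is higher in 12 of 12 samples.

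The bases next to lesions were far from evenly used, and the sequences printed above show them. Base shares were taken on the strand of each lesion in promoter windows, with place 0 the recorded base and negative places before it in the 5′ direction, over 58208 SSB and 62249 AP positions that belong to no close pair. At AP positions, place -2 was C in 53.2% and G in 36.4%, and A in only 4.10%. At SSB positions, place -1 was C in 55.2% and G in 25.3%, and A in 4.39%. Lesions of close pairs had like shares. Over the 383 AP close pairs wholly in windows, place -2 was C or G in 89.1% of lesions, and over 382 SSB close pairs place -1 was C or G in 85.4%. At offset -4 the base pair at place -2 of both lesions is the same, and at offset -2 the same holds for place -1.

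A base product was therefore computed for each offset after the profile had been seen. For every base pair that lies within 15 bases of both lesions, the shares of a base at the one lesion and of its complement at the other were multiplied, divided by the share of that base in the windows, and summed, and these sums were multiplied over base pairs. It holds no measurement of pairs. Its value for AP sites was 1.73 at offset -5, 2.08 at -4, 1.75 at -3, 1.43 at -2, 1.48 at -1, 1.06 at 0 and 0.939 at 1, so its highest and lowest offsets among members were those of the measured pairs. For SSBs it was highest at offset -2, at 1.69, and lower at offset -10, at 1.09. Over the 21 offsets, the Pearson correlation of the base product with the measured level was 0.985 for AP sites and 0.906 for SSBs (Spearman 0.977 and 0.943), given as a description because neighbouring offsets share base pairs and libraries. The measured AP level at offset -4, 2.87, was above the base product there. The SSB base product was above the measured level at every offset of the members, from 1.69 against 1.68 at offset -2 to, for example, 1.54 against 1.23 at offset 10. In single libraries the base product was highest at offset -4 in 12 of 12 AP libraries, at 1.78 to 2.32. In SSB libraries it was highest at -3 in bone marrow, at -2 in brain and liver, and at 0 or 1 in heart, PBMCs and sperm. This was the most frequent offset of measured pairs in 12 of 12 AP libraries but in only 6 of 12 SSB libraries, the others being both of heart, both of sperm, liver 2 and PBMC 1. The shares come from promoter windows only, in which C and G are more common than in most of the genome, and the part of base choice in the number of close pairs was not tested beyond this comparison.

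**Figure D4:**
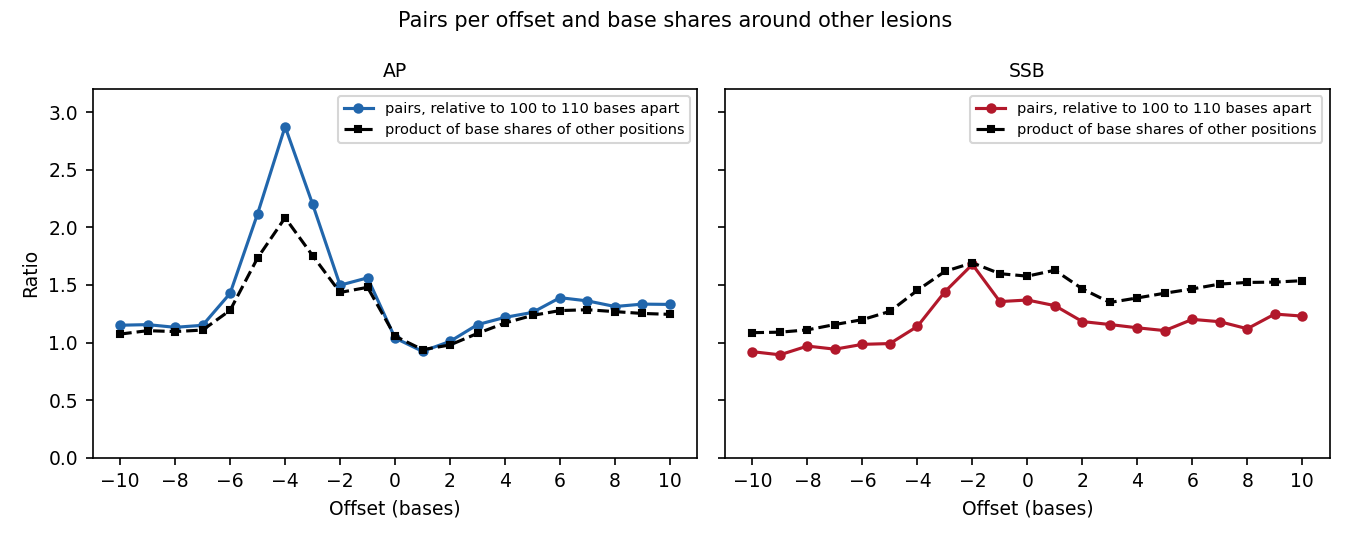
Measured level of pairs at each offset, summed over 12 libraries and divided by comparison pairs per offset (coloured circles), and base product from lesions outside close pairs in promoter windows (black squares), for AP sites and SSBs. Both curves of AP sites have their highest point at offset -4 (2.87 and 2.08) and their lowest at offset 1, and both SSB curves have theirs highest at offset -2 (1.68 and 1.69).

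No difference in gene content between close and comparison pairs passed the test. The midpoint of the pair was in the span of a gene for 58.6% ± 4.26 of SSB pairs and 64.3% ± 1.37 of AP pairs (SD, n = 12 libraries), against 59.0% and 64.8% of comparison pairs. The differences were -0.46 ± 2.72 and -0.56 ± 1.91 percentage points (SD; exact sign-flip tests, p = 0.606 and 0.319, adjusted p = 0.667 and 0.390). Within 1 kb of a gene start lay 6.46% of SSB and 3.96% of AP close pairs, against 7.05% and 4.305% of comparison pairs, with differences of -0.59 ± 1.28 and -0.34 ± 0.56 points (SD; p = 0.138 and 0.0596, adjusted p = 0.199 and 0.101, exact sign-flip tests). Within 1 kb of a gene 3′ end lay 4.38% and 3.53%, against 5.27% and 3.801%, with differences of -0.88 ± 1.47 and -0.27 ± 0.47 points (SD; p = 0.0591 and 0.0718, adjusted p = 0.101 and 0.113, exact sign-flip tests). None of these passed, and neither did the differences between the assays (p = 0.902 for genes, 0.536 for starts and 0.193 for ends, adjusted p = 0.902, 0.621 and 0.250, exact sign-flip tests). Against pairs 1000 to 1100 bases apart, however, close pairs were less often in genes, by -3.46 points for SSBs and -3.58 points for AP sites (p = 0.000488 each, exact sign-flip test). With that comparison SSB close pairs were more often at gene ends, by 0.841 points (p = 0.0205), and the assays differed there by 1.12 points (p = 0.00244, exact sign-flip tests), the opposite direction to that against pairs 100 to 110 bases apart. Starts and ends were known for the 25748 autosomal genes with a strand in the promoter table, which does not cover chromosome 18.

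A few dense loci held many close pairs of both assays. The 10 windows of 10 kb with the most close pairs formed 3 loci. The window chr17:39840001-39850000 holds Rn18s-rs5, an 18S ribosomal RNA-related sequence, and the start of AY036118. It carried 1989 SSB and 919 AP close pairs, 10.97% and 2.02% of all. None of them lay in the span of Rn18s-rs5, and AY036118 held 222 SSB and 83 AP close pairs over its whole span. Most close pairs of the window were thus in neither gene, and the name rRNA window used below refers to its annotation only. By library, the window's share of SSB close pairs was 18.6% and 27.2% in bone marrow, 13.2% and 14.5% in liver, 10.8% and 8.93% in heart, 10.4% and 7.96% in brain, 4.88% and 7.85% in sperm, and 5.38% and 2.99% in PBMCs. Bone marrow was highest and PBMCs and sperm lowest, and in AP libraries the share was 0.438% to 4.63%. The locus chr11:3120001-3200000 spans Sfi1, which encodes a centrin-binding protein of the centrosome. It carried 645 SSB and 2274 AP close pairs, 2.98% to 8.07% of an SSB library and 3.94% to 6.74% of an AP library. The window chr15:75080001-75090000, with no annotated gene, carried 230 SSB and 552 AP close pairs.

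Comparison pairs were dense in these loci too. The close excess was 1.01 for SSBs and 1.21 for AP sites in the rRNA window, 1.03 and 1.29 in the Sfi1 locus, and 0.952 and 1.19 in the chromosome 15 window, each below the mean over libraries. How reads from repeated sequence were placed is not given in the sources used here, and its part in these counts was not tested. The window chr13:3370001-3380000 went the other way and was singled out after its values were seen. It held 40 AP and 12 SSB close pairs and only 1 and 4 comparison pairs, and a pair at offset 4 in it (plus strand 3373117, minus strand 3373121) recurred in 5 AP libraries.

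**Figure D5:**
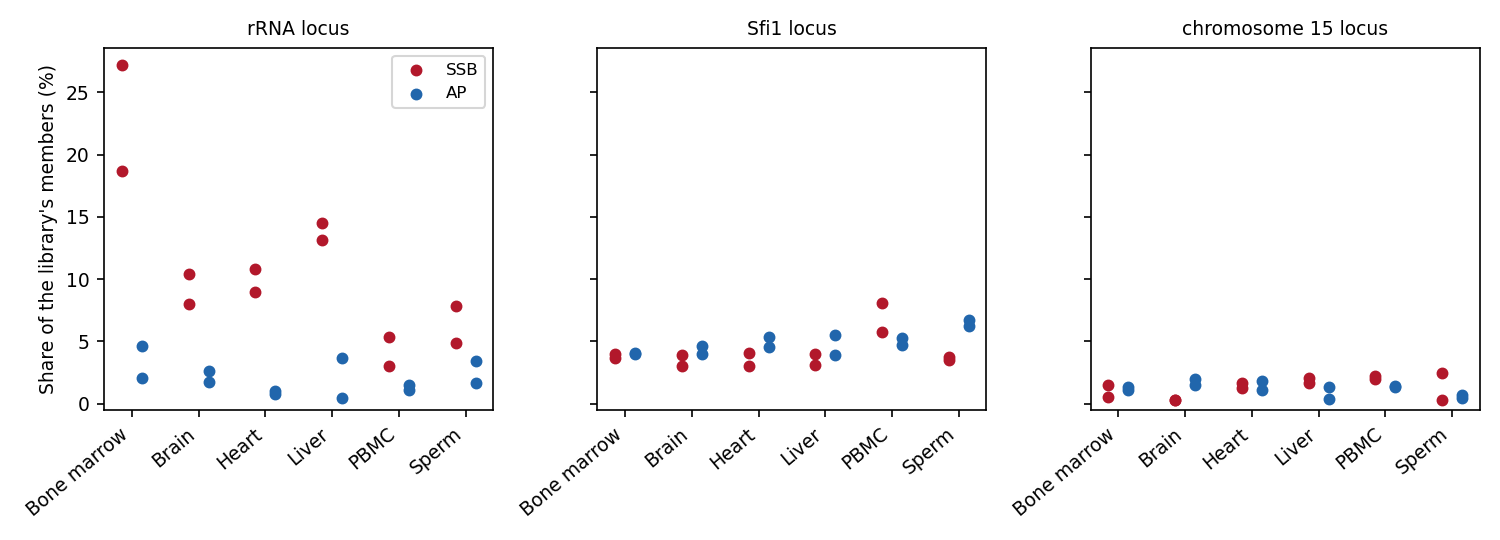
Share of each library's close pairs (percent) in the 3 loci densest in close pairs, by tissue and assay, each point a library. The rRNA window holds 2.99% to 27.2% of SSB close pairs and 0.438% to 4.63% of AP close pairs, and the Sfi1 locus holds like shares in both assays.

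Positions of close pairs were more often hit again. A deposited count above 1 was found at 0.635% to 2.11% (median 0.991%) of SSB positions in close pairs and at 0.139% to 1.22% (median 0.433%) of other SSB positions. The share was higher in close pairs in 11 of 12 libraries, sperm 1 being the exception, by 0.68 ± 0.42 points (SD; exact sign-flip test, p = 0.000977, adjusted p = 0.00358). For AP sites it was 0.615% to 1.43% (median 0.944%) against 0.334% to 0.929% (median 0.419%), higher in 12 of 12 libraries by 0.49 ± 0.25 points (SD; p = 0.000488, adjusted p = 0.00215, exact sign-flip test). The same base and strand recurred in the other library of the tissue for 0.572% to 1.89% of SSB positions in close pairs against 0.0811% to 0.157% of other positions, and for 0.517% to 1.36% against 0.145% to 0.362% of AP positions. The share was higher in close pairs in 6 of 6 tissues for each assay, by 1.02 ± 0.56 and 0.74 ± 0.22 points (SD; exact sign-flip tests over 6 tissues, p = 0.0312 each, the smallest possible, adjusted p = 0.0625). These differences moved with the dense windows. Without the densest 1% of 10 kb windows, the count differences were -0.021 points for SSBs and 0.027 for AP sites (p = 0.778 and 0.303, exact sign-flip tests). The recurrence differences were then 0.013 and 0.036 points (p = 0.781 and 0.219, exact sign-flip tests).

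Whole pairs rarely recurred. Of 17991 distinct SSB close pairs, 133 (0.739%) were found in several libraries, at most 4, and 131 of these lay in the 3 dense loci. Of 45249 distinct AP close pairs, 263 (0.581%) were found in several, at most 6, with 237 in the 3 loci. Comparison pairs recurred at like rates, 0.870% for SSBs and 0.617% for AP sites. The most widespread SSB pair was in AY036118 (plus strand 39848338 and minus strand 39848343 on chromosome 17, offset 5), in both bone marrow and both liver libraries. The most widespread AP pair lay on chromosome 15 (plus strand 75086819, minus strand 75086818, offset -1), in 6 AP libraries. An AP close pair of the same sample lay within 10 bases of 1.45% to 11.9% (median 4.004%) of SSB close pairs, and of 0.754% to 8.01% (median 3.07%) of SSB comparison pairs.

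Gene by gene, 14540 of 47042 autosomal genes held at least 1 close pair. Genes were compared between the assays with edgeR's quasi-likelihood test on close pairs per gene, with all close pairs of the library as its size and the sample as a block. Of the 635 genes with at least 10 close pairs, 3 (0.472%) had a Benjamini-Hochberg adjusted p under 0.05, all with a larger share of SSB than of AP close pairs, and 50 had an unadjusted p under 0.05. AY036118, a noncoding RNA gene next to the ribosomal RNA sequence (chr17:39848112-39898385), held 222 SSB and 83 AP close pairs. Its SSB counts were 36 and 9 in bone marrow, 4 and 22 in brain, 10 and 62 in heart, 22 and 48 in liver, 0 and 0 in PBMCs, and 8 and 1 in sperm. Per 10000 close pairs of a library it held 107 ± 79.5 in SSB and 19.4 ± 16.2 in AP libraries (SD, n = 12), a log2 ratio of 2.42 ± 0.34 (SE, edgeR adjusted p = 8.21e-10). Kctd16, an auxiliary subunit of GABA-B receptors, had a log2 ratio of 2.14 ± 0.50 (SE, edgeR adjusted p = 0.00585), from 32 SSB and 26 AP close pairs. Tmem267, a transmembrane protein gene, had 2.86 ± 0.76 (SE, edgeR adjusted p = 0.0387), from 14 and 3. Without its SSB pairs, Tmem267 would not have passed the filter of 10 close pairs. Comparison pairs numbered 218 SSB and 70 AP in AY036118, 53 and 46 in Kctd16, and 28 and 5 in Tmem267, so that Kctd16 and Tmem267 held fewer close than comparison pairs in both assays. No gene had a larger share of AP close pairs past the threshold. The genes nearest to it, Synpr, Nav3, Prkch, Efna5 and Camkmt, held 10 to 14 AP and 0 SSB close pairs (adjusted p = 0.257 to 0.271, edgeR). They passed the filter of 10 close pairs through their AP pairs alone, so their lack of SSB pairs is partly a matter of this choice. The calls were not stable. Their number was 0 with TMM factors (127 genes at an unadjusted p under 0.05) and 1 with DESeq2, whose size factors rested on 2 genes, and it was 1 without brain 1, without PBMC 1 or without sperm 2.

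Genes with close pairs in the most libraries were led by those of the dense loci. Some overlap and share pairs, namely Sfi1 with Gm11400, Mroh2a with Hjurp, Sp140 with Sp110, and Gm38510 with C130026I21Rik. Sfi1 and its neighbour Pisd-ps1, a pseudogene, had close pairs in 12 of 12 libraries of both assays, 577 and 2098 in Sfi1 and 63 and 177 in Pisd-ps1. For SSBs the next were AY036118 and Gm11400, then Sox5, a transcription factor gene with 17 close pairs in 9 libraries, and Mroh2a with 15 in 9. Hjurp, the chaperone of the centromeric histone, had 15 SSB close pairs in 8 libraries beside 4 comparison pairs. Pisd-ps2, Sp140 and the guidance receptor gene Plxna4 followed with 12 to 24 in 7 libraries. For AP sites, 12 of 12 libraries also had close pairs in Gm11400, Gm38510, C130026I21Rik, the nuclear body genes Sp140 and Sp110, the neuron navigator gene Nav2, the heavy chain locus Igh and the phosphatase gene Ptprm, with 28 to 147 each. The number of libraries was not corrected for the length of a gene. Per 100 kb, the long genes Igh, Ptprm and Nav2 held 1.45, 4.94 and 6.60 close pairs of both assays together, against 3741 in Sfi1. Among the 142 genes with at least 20 close pairs, the ratio to comparison pairs was highest in Foxp1, Thrb and Tln2 at 3.14, followed by Ebf3, Rbfox1, Igf1r, A930011G23Rik, Ano2, Astn2 and Glis1 at 2.42 to 2.99. Foxp1, a forkhead factor, had 33 close and 11 comparison pairs, and Igf1r, the IGF-1 receptor, had 21 and 8. The filter is on close pairs, which the ratio divides, so that genes pass it through a high close count. These ratios also rest on few pairs and were not tested.

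Gene lists chosen for their links to strand breaks gave counts that can be set beside those of all genes. Of 17 early response genes, which neurons and other cells switch on with promoter breaks, 7 held any close pair. There were 8 SSB and 5 AP pairs in all, beside 5 and 6 comparison pairs. Atf3 and Nr4a2 held 3 SSB pairs each, and Nr4a3 held 2 AP pairs. Jun had 1 pair of each assay, Fosl2 and Dusp1 had 1 AP pair each and Npas4 had 1 SSB pair, while Fos, Egr1, Arc and Btg2 had none. The 27 long neural and fragile site genes, which are prone to breakage under replication stress, all held close pairs, 140 SSB and 477 AP pairs beside 119 and 329 comparison pairs. They span 595 to 2271 kb each, and all 157 autosomal genes at least as long as the shortest of them held a close pair, against 14540 of the 47042 genes of any length. Those with the most AP close pairs were the splicing factor gene Rbfox1 with 43, Cdh13 with 29 and Csmd1 with 28. Over the whole list the excess was 1.52 for AP sites and 1.23 for SSBs, beside means over libraries of 1.42 and 1.14. The list values pool pairs over libraries, whereas the means weigh libraries equally and include the dense loci. They are thus unlike measures, and the gap between them was not tested. Among list genes with at least 10 AP comparison pairs (16 genes) the median AP excess was 1.48, against 1.16 over all 232 such genes. Wwox and Npas3, also in the list, had an AP ratio of 1.05 each. For SSBs only 2 list genes had 10 comparison pairs, with a median of 0.612 against 0.806 over 21 genes. Both filters are on comparison pairs, by which the ratio is divided, so that genes pass them through a high comparison count. No conclusion is drawn from these medians. Of 6 antigen receptor loci, cut by the V(D)J recombinase in lymphocytes, 5 held close pairs. They held 19 SSB and 63 AP pairs beside 16 and 53 comparison pairs, an excess of 1.24 and 1.25. The locus with the most was Igh, with 10 and 30 close pairs beside 5 and 28 comparison pairs. Of the ribosomal RNA copies, Rn18s-rs5 had none and AY036118 those given above.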

How the data were processed

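Per the labels, DNA lesions were mapped in 6 tissues of 24-month-old mice. The authors deposited, for each library, a list of single-base positions with strand and a raw count of reads or tags per position, without normalization or pooling. The positions were made with the authors' custom code, whose aligner and filters are not given in the sources used here. RNA libraries of the same samples were not analysed here. The submitters' processing notes name the builds mm10 and GRCm38. Each position was counted once. The members and gene lists were chosen with earlier results of these data known. Genes and promoter sequences were RefSeq of GRCm38.p6, as spans without exons. Libraries of both assays of a code are the same sample per the labels, which pairs them, and p-values measure the spread between samples of 2 mice. The exact two-sided sign-flip tests (4096 patterns, or 64 for 6 tissues) and exact permutation tests over 10395 pairings were adjusted by Benjamini-Hochberg over 22 comparisons. Close pairs per gene were tested with edgeR 4.0.16 (10 or more close pairs, library size all close pairs, sample as block) and, as an alternative, DESeq2 1.42.0, in R 4.3.3. Numbers of positions limit precision: a library held 223 to 6570 close pairs. Genes were named by number of libraries, ratio to comparison pairs (20 or more close pairs), adjusted p, or list. Alternatives changed the distance limit, comparison distance, dense windows, groups within 100 bases, recurrent positions, counts, depth, chromosomes, samples and tissues. The scripts were tested on simulated data. Python 3.11.15, numpy 2.4.6 and pandas 2.3.3 were used.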

Additional observations from a re-analysis of the deposited data

Results flagged for a closer look

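The assays differed in 3 measures of close pairs, each by a test of the difference itself over 12 samples (exact sign-flip test). The log2 close excess differed by -0.32 between SSBs and AP sites and was lower for SSBs in 12 of 12 samples. The gap between close and comparison pairs in strand order differed by 5.56 percentage points, higher for SSBs in 11 of 12 samples, but by 1.19 points (p = 0.303) with a limit of 20 bases, 3.95 points (p = 0.0874) at equal depth and 4.31 points (p = 0.0938, exact sign-flip tests) without replicate 1. The share of close pairs at most 2 bases apart differed by 7.34 percentage points, higher for SSBs in 12 of 12 samples. This share was not set against comparison pairs.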

How the results depend on the processing

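Of 632 alternatives over 23 results, judged at an unadjusted p of 0.05, 537 kept the direction and the side of the threshold, 32 turned the direction, 36 lost the threshold and 27 reached it. The genes called were judged by their number instead, with 2 or 3 genes counted as kept and 0 or 1 as lost. The close excess of SSBs against AP sites kept its direction and side under all its alternatives (-0.58 to -0.11, log2), as did the same-strand comparisons and the share at most 2 bases apart. Both ends of that range come from splitting pairs by side, which was chosen after seeing the data, and the other alternatives gave -0.37 to -0.26. The cause of the changes below was not tested.

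With a limit of 5 bases, the tissue measure for SSBs was -0.021 and strand order for SSBs -1.001 points. With a limit of 20 bases, the tissue measure for AP sites was -0.025, strand order 2.65 for AP sites and 1.19 between assays, genes 0.248 for SSBs, starts -0.340 for AP sites and ends -0.968 for SSBs. Against pairs 1000 to 1100 bases apart, the tissue measure for SSBs was -0.012, strand order for SSBs 1.28, genes -3.46 and -3.58 for SSBs and AP sites, starts 0.283 and -0.363, ends 0.841 for SSBs, and the assays differed by 0.646 at starts and 1.12 at ends. Without the densest windows, genes were -1.77 for SSBs and -0.892 between assays, starts -0.865 and ends -0.960 for SSBs, counts -0.021 for SSBs and 0.027 for AP sites, and recurrence 0.013 and 0.036. With groups counted once, genes were -1.90 for SSBs and -0.931 between assays, starts -0.364 for AP sites and ends -0.805 for SSBs. Without recurrent positions, the tissue measure for SSBs was -0.016, genes -1.93 for SSBs and -0.978 between assays, ends -0.989 for SSBs, and counts 0.038 for SSBs and 0.054 for AP sites. Thinned to equal depth, the tissue measure for SSBs was -0.033, strand order 1.75 for SSBs and 3.95 between assays, genes 0.307 and starts 0.102 for SSBs, starts 0.889 between assays, and recurrence for AP sites 0.233. With tissue means, ends were -0.274 for AP sites. Genes called were 0 with TMM, and 1 each with squared positions as library size, without recurrent positions (not one of the 3) and with DESeq2.

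Leaving out a sample, a replicate number or a tissue gave ranges of -0.011 to 0.026 for the tissue measure of SSBs, 2.09 to 3.99 for strand order of SSBs, -2.88 to -2.19 of AP sites and 4.31 to 6.81 between assays, -1.28 to 0.365, -1.13 to -0.11 and -0.54 to 0.751 for genes, -0.49 to -0.197 for starts of AP sites and -0.69 to 0.198 between assays, -1.20 to -0.597 and -0.57 to 0.019 for ends, 0.593 to 0.794 for counts of SSBs, 0.868 to 1.13 and 0.684 to 0.809 for recurrence, and 1 to 3 genes called. With 5 tissues, recurrence cannot reach p under 0.0625. Samples pair the assays by design. Without that replicate block the p of the close excess was 4.29e-05 and 3 genes were called, and no call changed. With the replicate block across tissues, the tissue measure was 0.023 for SSBs and -0.022 for AP sites. Recurrence without recurrent positions, and the tissue measure leaving out 1 sample, give no value and were not run.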
